A study of Mus musculus with 8 samples.

Results

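The RAS-RAF-MEK-ERK cascade was examined through 7 of its genes, Hras, Nras, Araf, Braf, Map2k1, Map2k2 and Mapk3, chosen by name for their place in the pathway. All 7 were present among the 19129 genes measured by RNA sequencing in pancreatic tumour isografts, which are tumours grown from transplanted mouse tumour material. Libraries came from 8 mice: 4 are labelled MEKi, with trametinib given for 7 days, and 4 are labelled control. Trametinib blocks the kinase activity of both MEK proteins. The sources used here name no strain, age, genotype or tumour line for either label, and no treatment for the control mice. The RNA is that of whole tumour pieces, host cells included.

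RAS proteins are small GTPases at the inner face of the cell membrane, switched on when exchange factors recruited by growth factor receptors load them with GTP. Active RAS recruits RAF kinases, RAF phosphorylates the MEK kinases, and MEK phosphorylates the ERK kinases, which then act on transcription factors. In pancreatic ductal cancer the pathway is best known for activating mutations in a RAS gene, and ERK activity also switches on its own brakes, among them the phosphatase gene Dusp6. Each protein of the cascade is regulated mainly by nucleotide binding or phosphorylation, which RNA levels do not measure.

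Facts of the libraries that touch these genes were as follows. The MEKi libraries held between 20182531 and 38569550 reads in tested genes and the control libraries between 20090101 and 31797960, and the 7 genes had between 491 and 8728 reads each in every library. The lowest count gives a counting error of 0.065 on the log2 scale, below the spread between mice. Epithelial markers such as Epcam and Krt19 were detected in every library, and so were fibroblast, macrophage, T cell and endothelial markers. None of the defining markers was at 0 in any library. Acinar markers stood apart: the 15 measured genes of that list summed to 15.5 to 2897 RPM (reads scaled to the library total) in the MEKi libraries and to 253 to 133043 RPM in the control libraries, with control 3 at the top and control 2 next at 46611. In such bulk samples fewer cells of a type and less RNA per cell cannot be told apart.

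The genes lie on 6 chromosomes of GRCm38. Hras is on chromosome 7 (141189105 to 141194005, minus strand), Nras on chromosome 3 (103058285 to 103067914, plus strand), Araf on chromosome X (20797814 to 20860519, plus strand) and Braf on chromosome 6 (39603237 to 39725463, minus strand). Map2k1 is on chromosome 9 (64185770 to 64253631, minus strand), Map2k2 on chromosome 10 (81105915 to 81133975, plus strand) and Mapk3 on chromosome 7 (126759601 to 126765819, plus strand). All are annotated as protein-coding. Among genes of the table, Ndufb2 overlaps Braf on the opposite strand by 146 bases and Syn1 overlaps Araf by 9 bases. The kit keeps strand, but the sources used here do not name the strand setting of the counting, so reads in these stretches are uncertain. Nras has an annotated pseudogene, Nras-ps2, and how reads shared with it were counted is likewise unknown.

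Promoter sequences are shown for 3 genes that, as described below, shared a set of 4 tumours at the end of their range: Nras and Map2k1 had their highest values there and Araf its lowest. Each runs from 250 bases before to 50 bases after the RefSeq start of the gene (GRCm38.p6), 5′ to 3′ on the gene's own strand. Capitals mark the GC box, GGGCGG or its reverse complement CCGCCC, and the CCAAT box, CCAAT or its reverse complement ATTGG. The windows are chr3:103058035-103058334 on the plus strand for Nras, chr9:64253556-64253855 on the minus strand for Map2k1 and chrX:20848293-20848592 on the plus strand for Araf.
Nras: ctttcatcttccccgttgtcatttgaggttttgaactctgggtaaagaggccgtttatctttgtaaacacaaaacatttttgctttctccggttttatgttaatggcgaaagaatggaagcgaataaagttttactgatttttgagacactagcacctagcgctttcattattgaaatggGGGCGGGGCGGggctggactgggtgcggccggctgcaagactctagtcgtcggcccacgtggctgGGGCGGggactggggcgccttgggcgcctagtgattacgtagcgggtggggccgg
Map2k1: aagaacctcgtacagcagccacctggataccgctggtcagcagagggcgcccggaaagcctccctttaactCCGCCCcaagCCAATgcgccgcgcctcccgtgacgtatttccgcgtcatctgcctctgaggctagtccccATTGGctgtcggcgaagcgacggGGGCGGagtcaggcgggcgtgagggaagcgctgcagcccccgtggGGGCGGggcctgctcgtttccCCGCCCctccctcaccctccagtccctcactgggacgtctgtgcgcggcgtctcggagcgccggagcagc
Araf: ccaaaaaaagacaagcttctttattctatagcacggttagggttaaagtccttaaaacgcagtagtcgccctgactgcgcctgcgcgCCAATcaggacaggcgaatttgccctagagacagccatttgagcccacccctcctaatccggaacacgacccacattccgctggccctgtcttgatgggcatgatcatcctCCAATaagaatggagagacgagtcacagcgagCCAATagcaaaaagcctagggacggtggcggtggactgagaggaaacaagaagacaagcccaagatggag
The Nras window held 3 GC boxes and 0 CCAAT boxes, with 2 of the GC boxes sharing a G. The Map2k1 window held 4 GC boxes and 2 CCAAT boxes. The Araf window held 0 GC boxes and 3 CCAAT boxes. Of 32851 RefSeq promoter windows of this length, 35.7% held a GC box and 37.4% a CCAAT box on either strand. Among the other members with an entry in the table, Hras had 3 GC boxes and 1 CCAAT box, Map2k2 had 2 GC boxes and Braf had 1. The Braf window also held 2 copies of the cyclic AMP response element TGACGTCA, which reads the same on both strands and was present in 1.79% of windows. The letters of the AP-1 site TGACTCA (5.2% of windows) and of the ETS site CCGGAAG (8.86%) were in 0 of the 6 windows, on either strand. Matches of letters are a description and show no binding.

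Transcripts of Mapk3 were the most abundant of the 7 genes and those of Braf the least. Levels between genes are given as RPKM, reads scaled to the length of annotated exon and to the library total, as the mean ± SD over all 8 libraries. Mapk3, which encodes ERK1, had a level of 61.2 ± 8.58 RPKM, Nras 42.2 ± 5.9 RPKM and Map2k1, which encodes MEK1, 27.5 ± 5.0 RPKM. Araf, which encodes the RAF kinase with the weakest catalytic activity, had 17.8 ± 2.24 RPKM, and Map2k2, which encodes MEK2, had 10.02 ± 1.04 RPKM. Hras had 7.22 ± 0.9 RPKM, and Braf, the RAF kinase with the strongest catalytic activity, had 4.02 ± 0.82 RPKM. Mean levels in the MEKi libraries were 65.9 RPKM for Mapk3, 28.8 RPKM for Map2k1 and 4.35 RPKM for Braf, against 56.5, 26.2 and 3.68 RPKM in the control libraries, in the same order of genes. Acinar reads are part of the library total that RPKM divides by, and the comparison of labels below uses the deposited scale.

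Each gene lay above the next in this order in 8 of 8 libraries. The ranges over libraries were apart for Araf above Map2k2, Map2k2 above Hras and Hras above Braf. They overlapped for Mapk3 and Nras, Nras and Map2k1, and Map2k1 and Araf, whose neighbours differed by 1.45 to 1.55 times in mean. With the longest annotated transcript as the length, an alternative chosen after seeing the data, Araf (40.7 ± 5.14) and Map2k1 (38.3 ± 6.96) could not be ordered, as Araf was the higher in 4 of 8 libraries. Nras then lay above Araf in 6 of 8 libraries and Hras above Braf in 7 of 8.

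**Figure D1:**
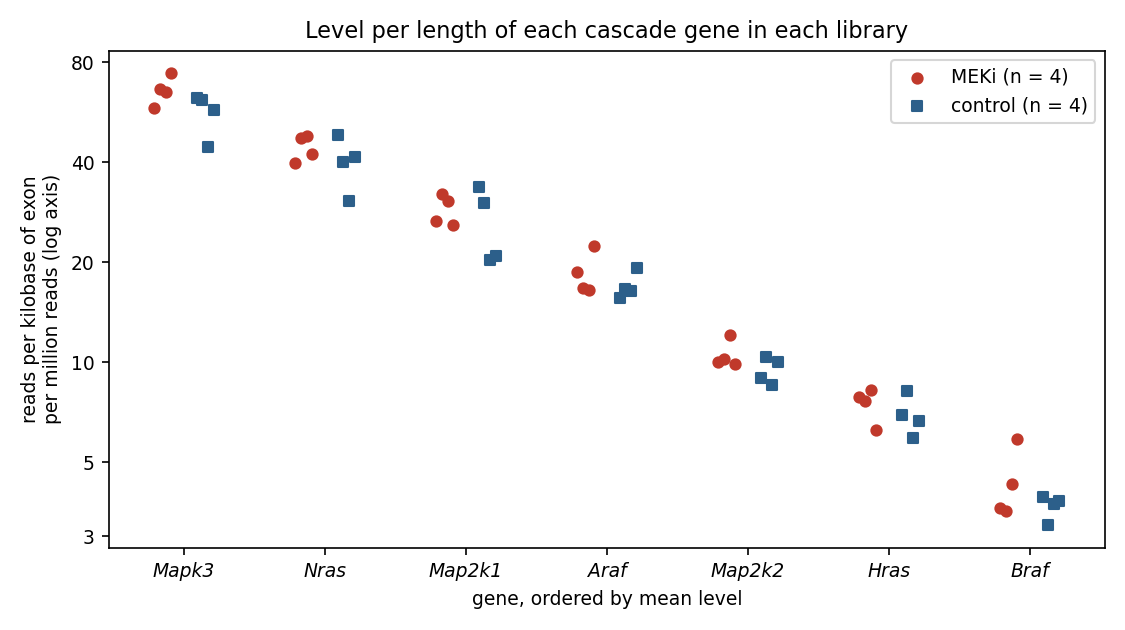
Level per length of the 7 cascade genes (RPKM, log axis), with 1 point per library, MEKi libraries (circles) left of control libraries (squares). Mean levels run from 61.2 for Mapk3 down to 4.02 for Braf, and points of both labels mix in each gene.

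Within each pair of paralogs 1 member dominated. Per length, the Hras level was 0.144 to 0.204 times that of Nras over the 8 libraries. The Araf level was 3.81 to 5.14 times that of Braf, and the Map2k1 level was 2.09 to 3.74 times that of Map2k2. With the longest annotated transcript as the length these became 6.12 to 8.26 for Araf to Braf and 1.23 to 2.21 for Map2k1 to Map2k2, and 0.159 to 0.226 for Hras to Nras, so the sizes depend on the length used and the order within each pair does not. The pair of MEK genes, which encode the targets of the drug, had a ratio per exon length of 2.65, 3.15, 2.54 and 2.61 in MEKi replicates 1 to 4, against 3.74, 2.91, 2.37 and 2.09 in control replicates 1 to 4. The highest and the lowest ratio were thus both in control libraries.

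The ratios did not separate the labels. As differences of variance-stabilised values, which are close to log2 ratios, Map2k1 to Map2k2 averaged 0.68 ± 0.14 in MEKi and 0.67 ± 0.36 in control libraries (SD, n = 4 each; two-sided exact permutation p = 1). Hras to Nras averaged -2.96 ± 0.17 in MEKi and -2.92 ± 0.22 in control libraries (exact permutation p = 0.83). Araf to Braf averaged 0.997 ± 0.21 in MEKi and 1.08 ± 0.17 in control libraries (exact permutation p = 0.571). Over the 3 ratios the adjusted p was 1 for each by the exact permutation test, whose smallest possible two-sided p over 70 relabellings is 0.0286.

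The 7 days of trametinib named in the labels were then compared with control for each gene, on the deposited log2-like, variance-stabilised scale. Differences between labels were small in all 7 genes, and the values of the labels overlapped in each. For the RAS genes, Hras had values of 9.63, 9.65, 9.68 and 9.33 in MEKi replicates 1 to 4, against 9.51, 9.82, 9.53 and 9.39 in control replicates 1 to 4. MEKi 4 was the lowest and control 2 the highest library, and the other 6 libraries lay between them. The log2 difference was 0.01 (SE 0.13, 95% interval -0.28 to 0.30, limma adjusted p = 1).

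Nras, the more abundant RAS gene of the pair, had values of 12.37, 12.68, 12.63 and 12.46 in MEKi replicates 1 to 4, against 12.70, 12.53, 12.30 and 12.41 in control replicates 1 to 4. High and low libraries stood under both labels. The log2 difference was 0.05 (SE 0.11, interval -0.21 to 0.31).

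Of the RAF genes, Araf had values of 11.59, 11.50, 11.40 and 11.84 in MEKi libraries, against 11.39, 11.57, 11.70 and 11.61 in control libraries, in replicate order. Braf had values of 10.36, 10.39, 10.58 and 11.02 in MEKi libraries, against 10.51, 10.34, 10.69 and 10.40 in control libraries. MEKi 4 was the highest library for both. The log2 difference was 0.02 for Araf (SE 0.12, interval -0.24 to 0.28) and 0.10 for Braf (SE 0.15, interval -0.25 to 0.45). Without MEKi 4 these differences were -0.07 for Araf and -0.04 for Braf.

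MEKi 4 was also the library with the lowest epithelial list mean, 11.40 over 14 genes, where the other 3 MEKi libraries had 12.04 to 12.39 and the control libraries 12.21 to 12.42. The summed level of that list was 5626 to 7821 RPM in MEKi and 5439 to 7320 RPM in control libraries. The lowest control sum was in control 3, where the acinar list took 133043 RPM of the library total. By list mean control 3 was the highest library for the epithelial list, at 12.42. The part of the epithelial markers in the Araf and Braf values was not tested beyond a fit with the epithelial mean as a covariate, chosen after seeing the data, in which the difference was -0.05 for Araf and -0.04 for Braf.

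The MEK genes also overlapped between labels. Map2k1 had values of 11.16, 11.49, 11.35 and 11.12 in MEKi libraries, against 11.54, 11.49, 11.08 and 10.80 in control libraries. It had the widest spread among the control libraries of the 7 genes, with an SD of 0.35, and control 4 and control 1 were the lowest and the highest of all 8 libraries. Map2k2 had values of 10.53, 10.60, 10.76 and 10.50 in MEKi libraries, against 10.42, 10.71, 10.60 and 10.50 in control libraries, the narrowest range of the 7 genes at 0.35. The log2 difference was 0.05 for Map2k1 (SE 0.17, interval -0.33 to 0.43) and 0.04 for Map2k2 (SE 0.10, interval -0.19 to 0.27).

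Mapk3, at the ERK step, had values of 11.69, 11.94, 11.83 and 12.03 in MEKi libraries, against 11.84, 11.92, 11.61 and 11.66 in control libraries. The highest value was in MEKi 4 and the lowest in control 3. Its log2 difference of 0.12 (SE 0.11, interval -0.13 to 0.36) had the smallest p of the 7 genes, 0.314 before adjustment by limma. It was 0.065 without MEKi 4, 0.067 without control 3 or with array weights, and 0.059 with the epithelial covariate.

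**Figure D2:**
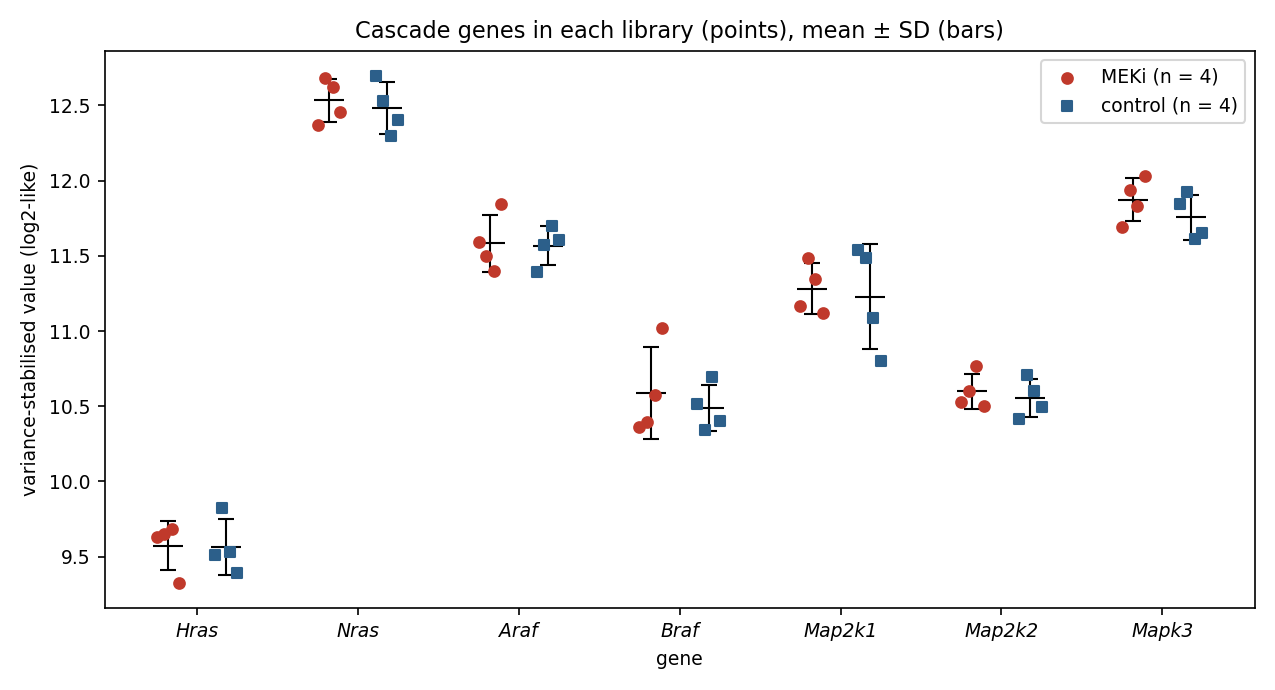
Variance-stabilised values (log2-like units) of the 7 cascade genes in each library, MEKi (circles) left of control (squares), with mean ± SD (n = 4 each). Values of the labels overlap in all 7 genes. The high MEKi point of Braf at 11.02 and the low MEKi point of Hras at 9.33 are the same library, MEKi 4.

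Of the 7 genes, limma called 0 over all genes tested, with 0 at an unadjusted p under 0.05, and voom on the recovered reads also called 0. Over all genes tested 0.00523% were called, which is 1 gene, lower in MEKi, and 1.77% had an unadjusted p under 0.05. Labels did not overlap for 1.27% of genes, 0.565% with MEKi higher and 0.701% with MEKi lower, so that a count of 0 among 7 genes is near the background. The intervals limit what could have been missed: over the 7 genes the lowest bound was -0.33 and the highest 0.45. All 7 means were higher in MEKi, by 0.01 to 0.12, where 51.6% of all genes were, but Araf was lower after quantile normalization and Hras was lower by voom. The median difference was 0.05 over the 7 genes and 0.0055 over all genes tested.

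**Figure D3:**
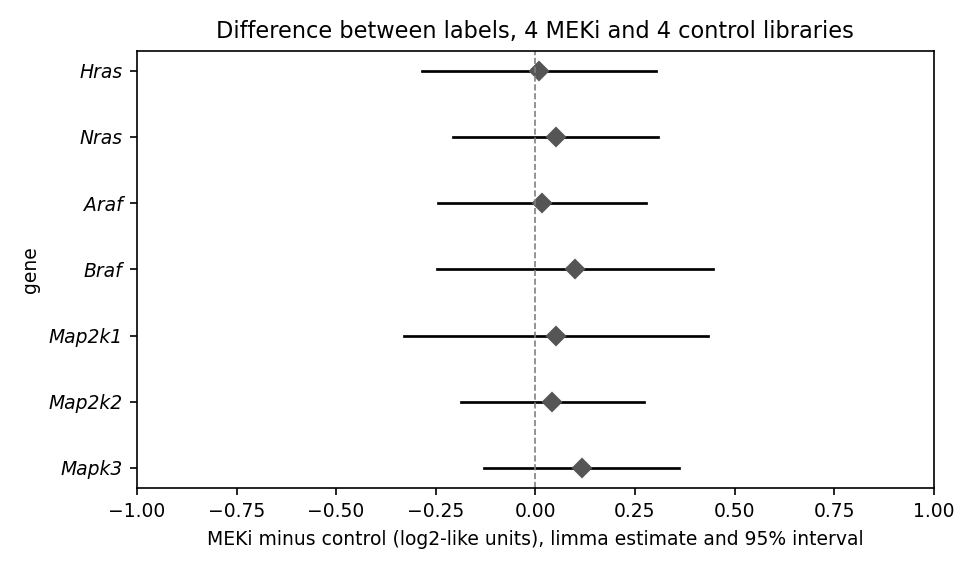
Difference between labels (MEKi minus control, log2-like units) for each of the 7 cascade genes, with the limma estimate (diamond) and its 95% interval (line), from 4 libraries per label. All 7 intervals include 0 and lie between -0.33 and 0.45.

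The spread between mice within a label stood near the middle of that of other genes at such levels. Pooled over the labels, the SD was 0.27 for Map2k1, 0.24 for Braf, 0.17 for Hras, 0.16 for both Araf and Nras, 0.15 for Mapk3 and 0.12 for Map2k2. Among the 7272 genes with a mean at or above that of Hras the median SD was 0.18. Of these genes 77.8% varied less than Map2k1 and 20.7% varied less than Map2k2, so the genes of the MEK pair stood at opposite ends of the members. In normalized reads the highest library exceeded the lowest by 1.70 times for Map2k1 and by 1.29 times for Map2k2. Dusp6, by contrast, spanned 11.4 times.

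Dusp6 encodes the phosphatase that removes the activating phosphates from ERK, and its RNA is commonly read as a gauge of ERK activity. Dusp6 had values of 8.88, 12.12, 12.20 and 11.01 in MEKi replicates 1 to 4, against 12.19, 12.14, 9.31 and 9.24 in control replicates 1 to 4. High and low tumours occurred under both labels. Dusp6 thus gave no check of the labels, and whether each tumour received what its label names was not tested, which bears on every difference between MEKi and control given here. The values fell into separate clusters, 3 libraries from 8.88 to 9.31 and 5 from 11.01 to 12.20, with 51.3% of the range between them. Because of the clusters no pooled correlation with Dusp6 is given, and none was computed within a cluster of 3 or 5 libraries. The relation was thus not tested and is described by order. The plan was not to split the libraries by Dusp6, and the counts at divisions of the order below are a description.

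In the order of Dusp6 from its lowest to its highest library (MEKi 1, control 4, control 3, MEKi 4, MEKi 2, control 2, control 1, MEKi 3), Nras had values of 12.37, 12.41, 12.30, 12.46, 12.68, 12.53, 12.70 and 12.63. In the same order Map2k1 had 11.16, 10.80, 11.08, 11.12, 11.49, 11.49, 11.54 and 11.35. The 4 libraries with the highest Dusp6 thus held the 4 highest values of Nras and of Map2k1. Araf, in the same order, had 11.59, 11.61, 11.70, 11.84, 11.50, 11.57, 11.39 and 11.40, so that these 4 libraries held its 4 lowest values. The margins were narrow for Araf, where control 2 had 11.57 and the next library, MEKi 1, 11.59. They were wider for Nras, with 12.53 in control 2 and 12.46 in MEKi 4, and for Map2k1, with 11.35 in MEKi 3 and 11.16 in MEKi 1.

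This order was examined after the values were seen. Of all genes tested, 6.59% had their 4 highest values in those libraries, as did 2 of the 7 cascade genes, and 7.38% had their 4 lowest values there, as did 1 of the 7. These shares were taken over genes of every level, not over the 7272 genes with a mean at or above that of Hras. In the ERK pathway output list, genes that ERK activity drives, 14 of 20 genes had their 4 highest values there. Dusp6 is among these 14 and matched by definition, as it set the order. The sizes were small beside that of Dusp6. All 8 libraries lay within 0.40 of each other for Nras, within 0.74 for Map2k1 and within 0.45 for Araf, against 3.31 for Dusp6.

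The match held after quantile normalization and with library medians aligned. On log2 RPM, without the authors' size factors, it was kept for Map2k1 but not for Nras or Araf. Control 2 and control 3, with their high acinar values, stand on different sides of the Dusp6 order. The 4 libraries with the highest Dusp6 also had the 4 highest means of the endothelial list. These were 9.19 to 9.62, and the next library, MEKi 4, had 8.86. Of the 10 endothelial genes, 4 had their 4 highest values there and 0 their 4 lowest. Of 14 epithelial genes, 3 had their 4 lowest values there and 0 their 4 highest. For 14 macrophage genes these counts were 0 and 2. Both were 0 for the acinar, fibroblast and T cell lists. The part of acinar RNA or of other tissue content in the order of Nras, Map2k1 and Araf was not tested.

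Which genes matched depended on where the order was divided. The division above puts MEKi 4 with the low libraries, while the gap in Dusp6 puts it with the high ones. At that gap, an alternative added after seeing the data, the 3 libraries of the lower Dusp6 cluster held the 3 lowest values of Nras and of Mapk3, 2 of the 7 genes, where 5.21% of all genes did so, and the 3 highest values of 0 of the 7, where 4.86% did. Mapk3 had 11.69, 11.66 and 11.61 in these libraries and its highest value, 12.03, in MEKi 4. Map2k1 and Araf did not match at the gap, with Map2k1 at 11.12 in MEKi 4 and 11.16 in MEKi 1. The match of Mapk3 held on the 3 other scalings, and that of Nras with library medians aligned but not after quantile normalization or on log2 RPM.

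The other 3 genes, Hras, Braf and Map2k2, matched at neither division. Hras had 9.63, 9.39, 9.53, 9.33, 9.65, 9.82, 9.51 and 9.68 in the order of Dusp6. Braf had 10.36, 10.40, 10.69, 11.02, 10.39, 10.34, 10.51 and 10.58, with MEKi 4 far above the rest. Map2k2 had 10.53, 10.50, 10.60, 10.50, 10.60, 10.71, 10.42 and 10.76, with its lowest value in control 1, which has the second highest Dusp6.

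**Figure D4:**
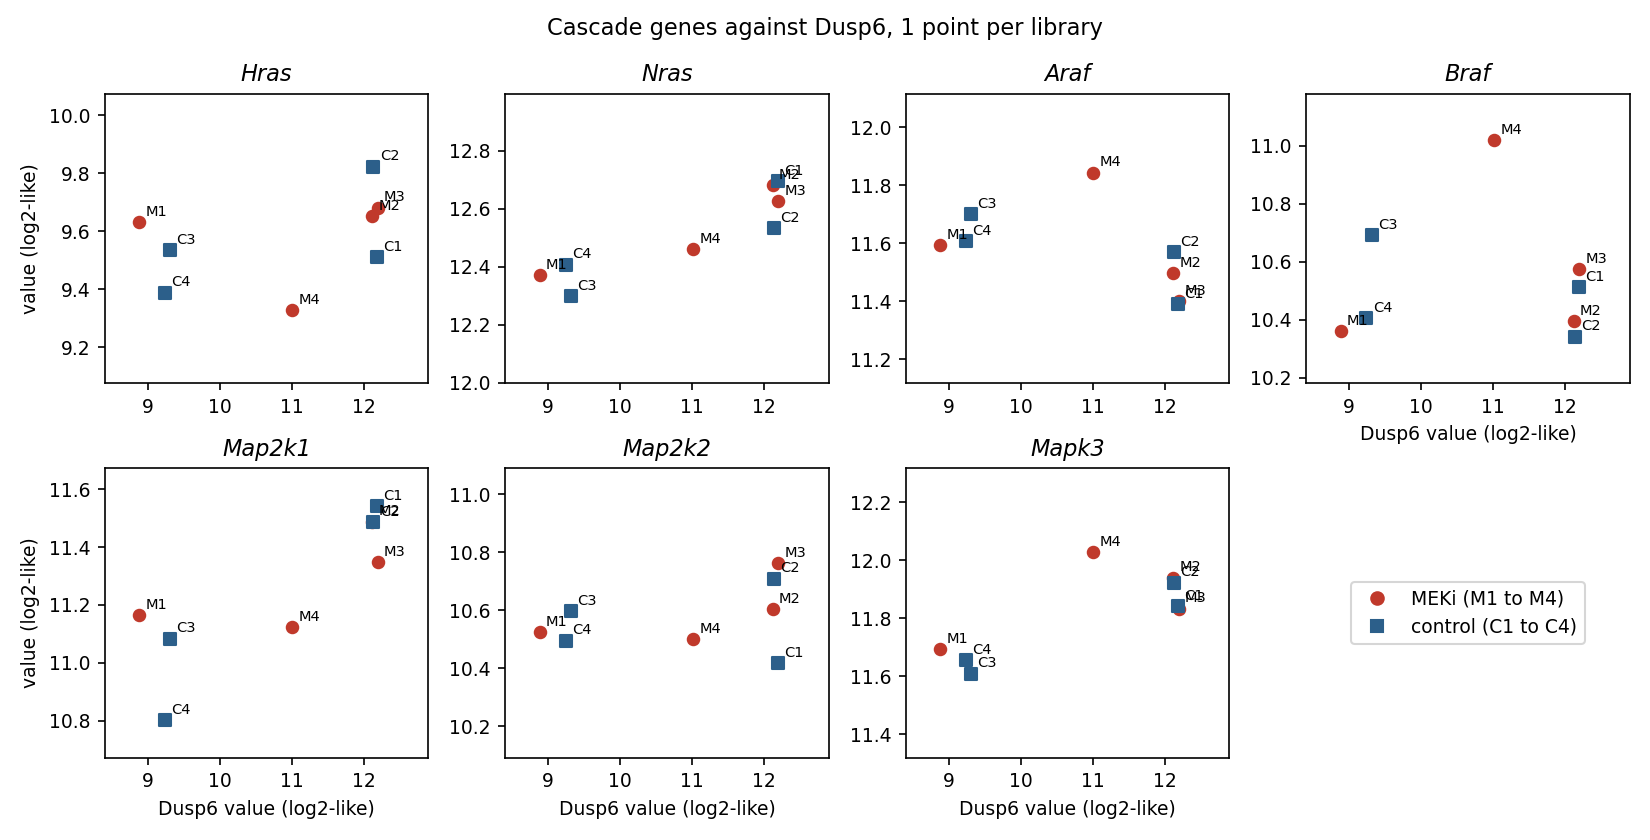
Values of the 7 cascade genes against Dusp6 (both log2-like units), 1 panel per gene and 1 point per library, MEKi libraries as circles (M1 to M4) and control libraries as squares (C1 to C4), with a vertical axis of the same length in each panel. Nras and Map2k1 are highest, and Araf lowest, in the 4 libraries with Dusp6 from 12.12 to 12.20.

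Relations among the 7 genes over the 8 libraries were tested for all 21 pairs. By exact permutation tests with adjustment over the pairs, 0 passed the threshold of 0.05 for Pearson's r or for Spearman's rho, while 3 pairs had an unadjusted p under 0.05 for r and 4 for rho. Nras and Map2k1, a RAS and a MEK gene, had the highest r at 0.79 (rho 0.86, exact p = 0.0226 and 0.0107, adjusted p = 0.296 and 0.108). Without the 2 libraries farthest from the median of Nras, control 1 and control 3, r was 0.76 (exact p = 0.0819). With the label means removed it was 0.79, and after quantile normalization 0.68.

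Nras and Araf had the lowest r at -0.72 (rho -0.81, exact p = 0.0416 and 0.0218, adjusted p = 0.296 and 0.114). This relation moved with the scaling, to -0.89 after quantile normalization and to -0.50 with library medians aligned. It was -0.91 without MEKi 4, a setting added after seeing the data, and -0.59 (exact p = 0.231) without control 1 and control 3. Araf and Map2k1 had a rho of -0.83 (exact p = 0.0154, adjusted p = 0.108) and an r of -0.60 (exact p = 0.117, adjusted p = 0.307). Without MEKi 4 and control 1 that r was -0.56 (exact p = 0.26).

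Hras and Map2k2 had an r of 0.73 (rho 0.86, exact p = 0.0422 and 0.0107, adjusted p = 0.296 and 0.108). Without MEKi 4 and control 2 their r was 0.66 (exact p = 0.15). The paralogs did not follow each other closely: r was 0.30 for Hras and Nras (exact p = 0.458, adjusted p = 0.828), 0.27 for Map2k1 and Map2k2 (exact p = 0.513, adjusted p = 0.828) and 0.63 for Araf and Braf (exact p = 0.0981, adjusted p = 0.307). The Araf and Braf value rested on MEKi 4, without which r was 0.04 (exact p = 0.922). Hras and Braf had an r of -0.64 (rho -0.60, exact p = 0.0905 and 0.132, adjusted p = 0.307 and 0.463), which was 0.01 (exact p = 0.989) without MEKi 4 and control 2. Mapk3 and Map2k1 had an r of 0.58 (rho 0.55, exact p = 0.134 and 0.171, adjusted p = 0.313 and 0.513), and it was 0.87 without MEKi 4, the library where Mapk3 was highest.

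**Figure D5:**
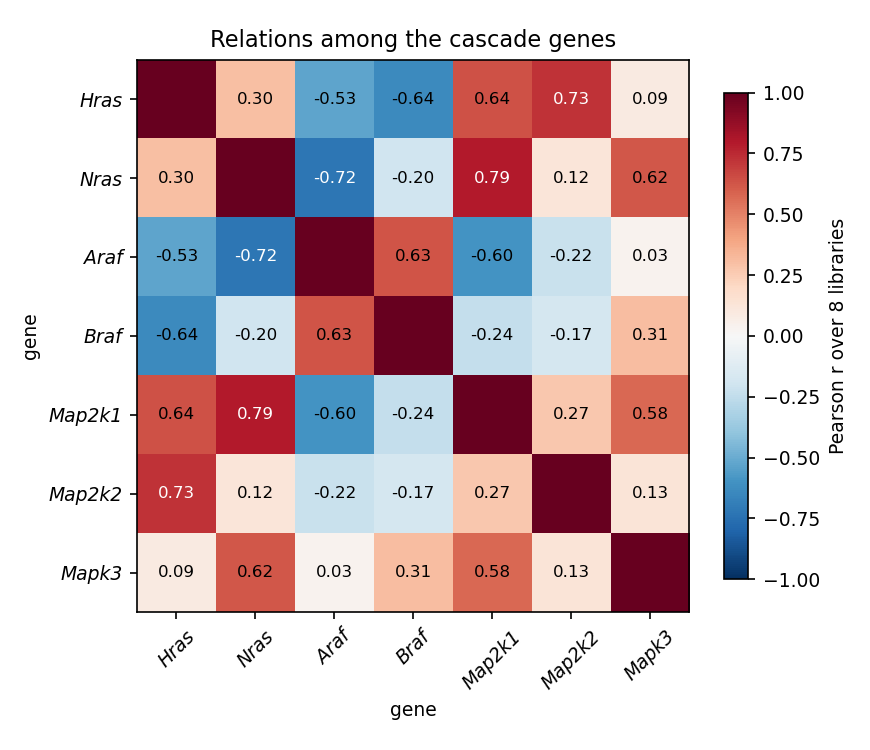
Pearson's r over the 8 libraries for each pair of the 7 cascade genes, on a scale from -1 (blue) to 1 (red). Values run from -0.72 for Nras and Araf to 0.79 for Nras and Map2k1, and 0 of the 21 pairs passed the exact permutation test after adjustment.

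The genes whose pattern over the 8 libraries was most like that of each member were sought among 11734 other genes with at least 100 reads on average. With 8 libraries and so many genes, high correlations arise readily, and they are given as a description. For Nras the closest were Eva1c (r 0.97), Styk1 (0.97) and Zfp217 (0.97), and for Map2k1 they included Mef2d (0.98) and Sec24b (0.98). For Hras they were Arhgef1 (r 0.99), Mrtfa (0.98) and Rps6ka1 (0.98). For Araf they were Cep131 (r 0.99), Slc27a1 (0.98) and Sort1 (0.98), and for Braf they were Uri1 (0.99), Zfp62 (0.99) and Sepsecs (0.98). For Mapk3 they were Dip2b (r 0.97), Capn1 (0.97) and Sufu (0.96). Map2k2 had the fewest close matches, with Cdk3 (r 0.95), Agpat1 (0.91) and Sgk3 (0.91) the 3 genes at 0.9 or above, where Map2k1 had 202 such genes.

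Genes around the cascade were read from lists by role, and limma called 0 genes in each list in either direction, with 0 at an unadjusted p under 0.05 in the pathway lists, and voom also called 0. Upstream, the receptor adaptors and exchange factors, which load RAS with GTP, had 21 measured of 22 listed genes, 13 with higher and 8 with lower means in MEKi, and a median difference of 0.07, but with the epithelial covariate 10 were higher (median -0.0065). Their gene with the smallest p was Rasgrf1, an exchange factor for RAS, with 8.70, 8.58, 7.48 and 5.79 in MEKi replicates 1 to 4, against 8.93, 8.65, 8.73 and 8.60 in control replicates 1 to 4. Its difference of -1.09 (SE 0.55, limma adjusted p = 1) was carried by MEKi 4 and was -0.48 without it.

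The RAS GTPase activating proteins, which return RAS to its inactive form, had 7 of 10 means higher and a median difference of 0.06, but 5 of 10 were higher without MEKi 2 (median 0.018), without control 4 (-0.017) or with array weights (0.016). Rasa4 had the smallest p of them (9.46 ± 0.39 in MEKi and 9.07 ± 0.20 in control libraries, SD, n = 4 each). Its difference of 0.39 was 0.23 without MEKi 4. Of the other RAS family GTPases 10 of 12 had higher means, with a median difference of 0.09, but 5 of 12 did without MEKi 3 and 6 of 12 with the acinar list mean as a covariate. Rala, a GTPase activated downstream of RAS, had 10.78 ± 0.17 in MEKi and 10.61 ± 0.14 in control libraries, a difference of 0.17 that was 0.25 without MEKi 1 and 0.11 with array weights. The RAS processing enzymes, a list of genes whose products modify RAS or deliver it to membranes, had 2 of 9 means higher. Their median difference was -0.05, with the depalmitoylating thioesterase gene Lypla1 at 10.03 ± 0.40 in MEKi and 9.73 ± 0.23 in control libraries. The Lypla1 difference of 0.31 was 0.14 without MEKi 3.

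At the level of RAF and MEK, the scaffolds and regulators had 26 measured genes from 29 listed names, 12 higher and 14 lower in mean. Their median difference was -0.0027, and its sign turned in 7 of the 20 other settings. Ywhah, a 14-3-3 protein gene of the family that binds phosphorylated RAF, had 12.47 ± 0.25 in MEKi and 12.29 ± 0.16 in control libraries. Its difference of 0.19 was 0.069 without MEKi 3, 0.12 without control 3 and 0.064 with the acinar covariate. Downstream, 4 of 7 ERK substrate kinases had higher means, with a median difference of 0.0046, against 3 without MEKi 3 or control 3 and 2 without control 4. Rps6ka2, which encodes an RSK kinase, had 8.20 ± 0.28 in MEKi and 8.48 ± 0.17 in control libraries. Its difference of -0.28 was -0.15 without MEKi 4, the library with the lowest epithelial mean, and -0.15 without control 2 and control 3. The stress and ERK5 cascade kinases, which run in parallel, had 20 measured of 21 listed genes, 12 with higher means and a median difference of 0.03, and 10 with higher means without MEKi 2, MEKi 3 or control 3. Mapk14, which encodes the p38 alpha kinase, had 11.72 ± 0.06 in MEKi and 11.60 ± 0.08 in control libraries. The ERK pathway output list had 15 of 20 means higher and a median difference of 0.12, against 0.0055 over all genes. This direction rested on single libraries: 5 of 20 means were higher (median -0.11) without MEKi 2, 9 of 20 (-0.018) without MEKi 3, 5 of 20 (-0.13) without control 3 and 4 of 20 (-0.17) without control 4. With array weights it was 9 of 20 (-0.0048). Its gene with the smallest p, the Eph receptor gene Epha4, had 9.74 ± 0.49 in MEKi and 9.34 ± 0.23 in control libraries, and its difference of 0.39 was 0.19 without MEKi 2.

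These lists were also set against the order of Dusp6. The 4 highest values stood in the 4 libraries with the highest Dusp6 for 7 of 20 stress and ERK5 cascade kinases, among them Map2k3, Map2k4 and Map2k7. They did so for 7 of 26 scaffolds and regulators, among them the scaffold gene Ksr1 and the MEK1 partner gene Lamtor3. The count was 3 of 12 for the other RAS family GTPases (Rras, Rap1b and Rap2b), and 1 each for the adaptors (Grb2), the GTPase activating proteins (Rasa3), the processing enzymes (Golga7) and the ERK substrate kinases (Rps6ka4). The inhibitor gene Pebp1, whose product binds RAF, and the arrestin gene Arrb1 had their 4 lowest values there. The background over all genes was 6.59% for the highest and 7.38% for the lowest values, and the genes named here were chosen after their values were seen.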

How the data were processed

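Total RNA of 8 pancreatic tumour isografts, 4 labelled MEKi and 4 control by their titles, was measured. Per the labels' protocols, samples above a set RNA integrity limit entered strand-specific total RNA libraries. The submitters' processing notes name DESeq2 1.18.1, STAR 2.5.3a and GRCm38, and the sources used here name no annotation, counter or filter. The deposited values are log2-like and, going by the name the authors gave the table, variance-stabilised, which compresses differences of genes with few reads. Inverting the transformation from its common floor of 5.12 gave whole reads for 100% of values (within 0.01), from which depth and levels per length were computed.

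Of 19431 rows, 32 name no gene (0.101% to 0.167% of reads) and were dropped. Another 86 symbols stood on several rows, of which that with the top mean was used, leaving 19129 genes, 19056 matched to reference names. The label comparison used limma 3.58.1 under R 4.3.3 (eBayes with a trend, no covariates, two-sided, Benjamini-Hochberg over all genes, threshold 0.05). The fit was tested on simulated independent genes with effects larger than the differences of the 7 genes, so that test does not cover such differences. Ratios and relations used exact permutation tests. Nothing in the labels links a replicate number to a litter, batch or day, so p-values measure the spread between these mice. Alternatives were quantile normalization, robust moderation, array weights, aligned medians, moderation without a trend, every row kept, the upper 75% of genes by mean, voom on recovered reads with the authors' size factors, an acinar covariate, the replicate block and each library left out. An epithelial covariate, leaving out control 2 and control 3, and the scalings and division of the Dusp6 order were added after seeing the data. So were the relations without MEKi 4. Exon lengths are GENCODE unions, promoters RefSeq's (6 of 7 genes matched). Named genes were the 7 members, Dusp6, the gene with the smallest p of each pathway list and the 3 most alike genes per member; some genes are not reported here. Values were treated as forming separate clusters where a gap took over 0.4 of the range with at least 2 libraries on both sides. The members and lists were chosen with earlier results of these data known. Figures were drawn with matplotlib 3.10.9.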

Additional observations from a re-analysis of the deposited data

Results flagged for a closer look

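Of 22 sets of 4 libraries examined (the 7 genes, Dusp6 and the 3 ratios under both labels), 1 held a library far from the others. Hras had a value of 9.33 in MEKi 4, and the nearest of the other MEKi libraries had 9.63, a gap of 0.859 of the range of the 4 values. About 1 in 20 such sets would be marked by chance.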

How the results depend on the processing

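Over 20 other settings of the label comparison, limma or voom called 0 of the 7 cascade genes in each, and the smallest unadjusted p of any of them was 0.154. Mapk3 kept its direction in all 20. Other directions turned: -0.018 for Hras by voom, -0.035 for Nras with the acinar covariate, -0.017 for Nras without control 2 and control 3, and -0.0076 for Araf after quantile normalization. With array weights Araf was -0.016, Braf -0.0075 and Dusp6 -0.037, and with the epithelial covariate Araf was -0.048 and Braf -0.044. With each library left out in turn the differences ranged from -0.050 to 0.096 for Hras, -0.010 to 0.12 for Nras, -0.069 to 0.078 for Araf, -0.044 to 0.18 for Braf, -0.090 to 0.16 for Map2k1, -0.012 to 0.094 for Map2k2, 0.065 to 0.18 for Mapk3 and -0.16 to 1.06 for Dusp6. The log2 ratio difference ranged from -0.13 to 0.028 for Hras to Nras, from -0.16 to -0.025 for Araf to Braf and from -0.11 to 0.16 for Map2k1 to Map2k2.

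With the replicate number as a block 0 of the 7 genes were called, and the ratios gave exact p-values of 0.875, 0.625 and 1 by sign flips. Deviations of same-numbered libraries correlated at -0.33, 0.20, -0.46 and 0.02, which gave no sign that the numbers pair the libraries. A pairing is not excluded, as deviations over all genes also carry differences in tissue content. Among relations, 0 of 21 pairs passed after adjustment on quantile-normalized values or with medians aligned. On log2 RPM the count of genes with their 4 highest values in the 4 libraries with the highest Dusp6 was 1 instead of 2, and with their 4 lowest values 0 instead of 1. The cause was not tested. Depth does not limit these genes, whose lowest count was 491 reads, but 4 libraries per label cannot resolve differences as small as those seen.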
